A study of Mus musculus with 4 samples.

Results

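Transaortic banding was set against sham operation in wild-type mice by subtracting the log2 intensity of the sham array from that of the banded array, gene by gene. Banding narrows the aorta and makes the left ventricle pump against a raised pressure, and the series asks what the cytokine IL-18 does to gene expression in the hypertrophy that follows. A gene was included where at least 1 of the 2 arrays reached 64 intensity units, values under 64 were set to 64, and each gene was read from whichever of its probe sets was brightest on average across all 4 arrays. This gave 5040 genes of the 12393 with a probe set of their own, of which 4047 reached 64 on both wild-type arrays. The series holds 1 array each for sham and banded hearts of wild-type and IL-18 null mice, hybridised with biotin-labelled total RNA. Per the labels the tissue was left ventricle for the IL-18 null mice, which were on a C57BL/6 background, and cardiac muscle for wild-type sham. The IL-18 null pools came from 5 sham mice and 6 mice banded for 1 week. The wild-type strain, the size of the wild-type pools beyond the 5 to 6 per group of the series design, the banding time in wild type, and the age and sex of the mice were not given in the labels used here.

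An adult ventricle under pressure overload is known to enlarge its muscle cells and to take up part of the fetal cardiac programme again, with more natriuretic peptide, slow myosin heavy chain and skeletal actin transcript. Fibroblasts lay down collagen and other matrix around the muscle, and mitochondrial fuel use is known to shift in the overloaded heart. Mechanical stress also induces immediate-early genes such as Fos and Egr1, whose transcripts rise and decay quickly.

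Since each side of the comparison is 1 pooled array, the differences below have no replicate, no error and no p-value. They are log2 differences, banded minus sham, and "at least" or "or below" marks a difference in which 1 array lay under 64 and which is therefore a bound. Intensities are as deposited and are listed for the wild-type pair and then the IL-18 null pair, each with sham before banded. Each probe set has its own brightness, so levels are compared between arrays and not between genes.

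The wild-type arrays stood apart from each other before any gene list was looked at. Gapdh and Actb each have 3 control probe sets, at the 5′ end, the middle and the 3′ end of the transcript, and an array made from shortened RNA or from short labelled copies loses signal away from the 3′ end. For Gapdh the wild-type sham array read 65.8 at the 5′ end, 83.6 in the middle and 2044.5 at the 3′ end, whereas the wild-type banded array read 13236.5, 17062.5 and 15321.5. The banded minus sham difference was therefore 7.65 at the 5′ end, 7.67 in the middle and 2.91 at the 3′ end of a single transcript. For Actb it was 7.84, 6.83 and 3.95, from 8.9, 16.9 and 498.9 on the sham array to 2041.3, 1918.5 and 7728.2 on the banded array.

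The bacterial control transcripts dap, thr and phe, which the heart does not make, did not all follow this pattern. At the 5′ end, the middle and the 3′ end dap differed by 5.09, 7.70 and 3.27, least at the 3′ end, whereas thr differed by 2.18, 3.33 and 3.35 and phe by 2.28, 0.93 and 1.27. The 5′ and middle values of thr and phe were under 64 on both wild-type arrays, and differences of control probe sets are given without the floor. The hybridisation controls cre and bioD differed by at most 0.42 between the wild-type arrays at either end. In the IL-18 null pair the Gapdh and Actb control probe sets differed by at most 1.26 at any position. Both IL-18 null arrays nevertheless lost signal toward the 5′ end. The 3′ intensity over the 5′ intensity was 31.1, 1.16, 35.0 and 20.5 for Gapdh, with wild-type sham and banded before IL-18 null sham and banded. For Actb it was 56.1, 3.79, 8.22 and 7.55, so wild-type banded had the lowest ratio for both transcripts. Surgery and 3′ bias differed together between the wild-type arrays and cannot be told apart in them. The median intensity over all probe sets was 13.7, 11.3, 11.6 and 11.6, and 29.2% to 32.3% of probe sets reached 64.

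**Figure D1:**
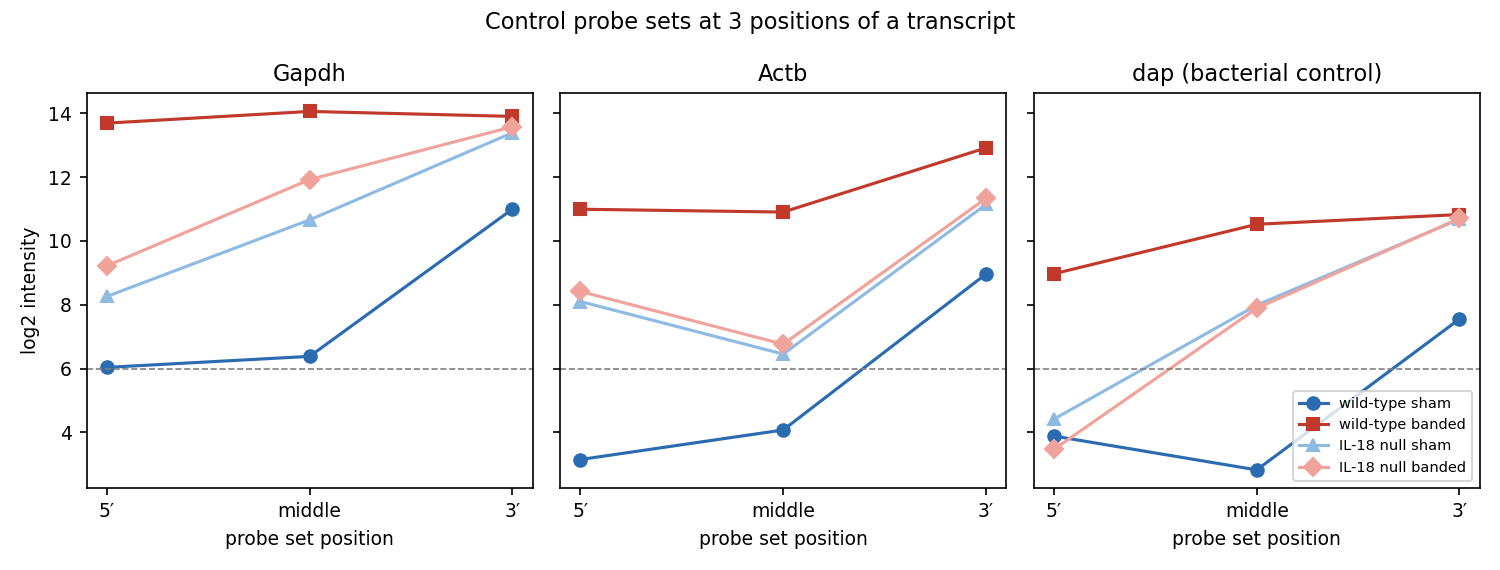
Log2 intensity (vertical axis) of the control probe sets at the 5′ end, middle and 3′ end (horizontal axis) of Gapdh, Actb and the bacterial control dap on each of the 4 arrays, 1 point per probe set; the dashed line marks 64 units (log2 6). The wild-type sham array is lowest at the middle and 3′ positions in all 3 panels, and the wild-type banded array is nearly level across Gapdh.

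Between the wild-type arrays 1096 genes were at least 2-fold higher in banded (21.7% of those measured) and 647 were at least 2-fold lower (12.8%), so that 34.6% passed 2-fold in either direction. After quantile normalization the split was 852 higher and 1272 lower, and after cyclic loess 1238 and 426, so the share of these genes that was higher moved from 62.9% to 40.1% and 74.4%. The median of all genes was -0.08, and moved to -0.42 and 0.10 under the same normalizations. In the IL-18 null pair, which shares no array with the wild-type pair, 6.98% of 4827 genes passed 2-fold upward and 2.53% downward (9.51% in either direction). The wild-type differences were also larger in size, with 522 genes at least 4-fold higher and 46 at least 4-fold lower, and 92 and 2 past 16-fold. Of the higher genes 407 were bounds, and of the lower genes 80.

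**Figure D2:**
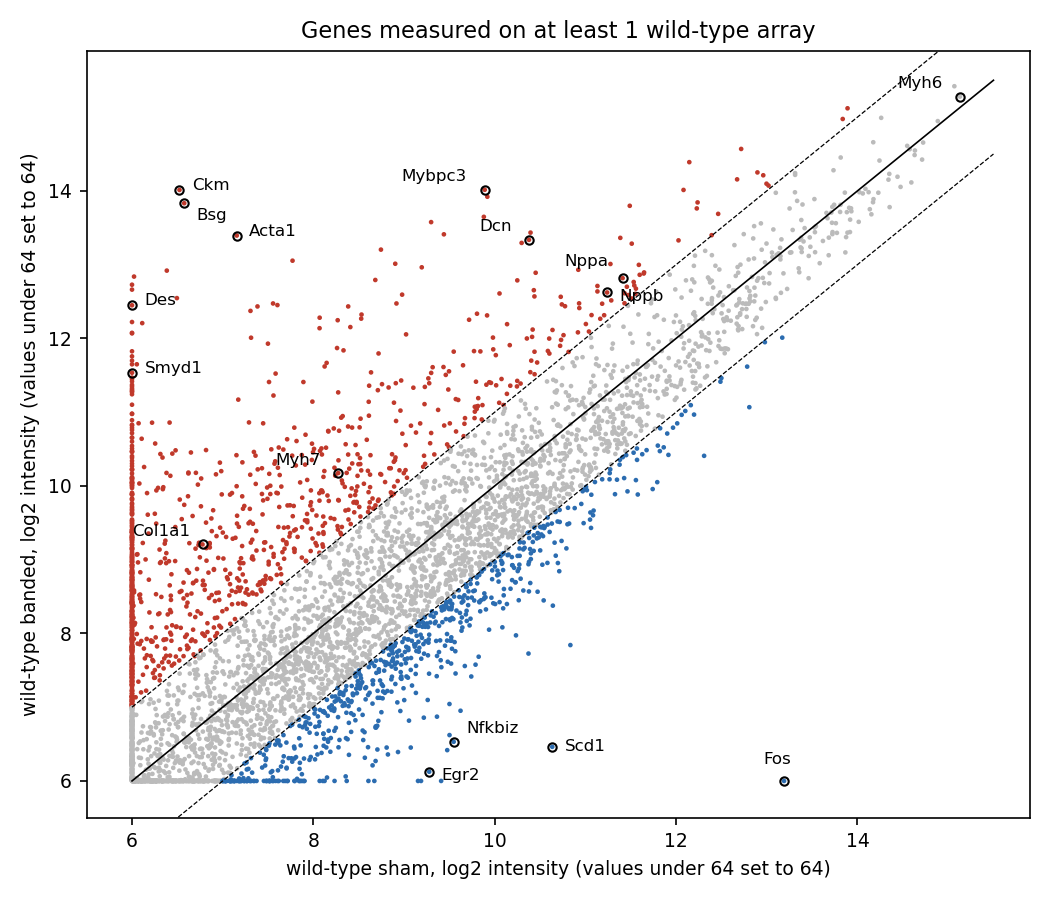
Log2 intensity on the wild-type sham array (horizontal axis) and on the wild-type banded array (vertical axis) for the 5040 measured genes, values under 64 set to 64; the solid line is equality, the dashed lines are 2-fold, and red and blue points are at least 2-fold higher or lower in banded. The 1096 red points spread farther from the line than the 647 blue points, and Fos is the blue point with the largest difference, a bound.

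Counts past 2-fold were also set against the IL-18 null arrays. Among the 1096 higher genes, wild-type sham was the lowest of the 4 arrays for 968 (88.3%) and at least 2-fold below each of the other 3 for 627 (57.2%), while wild-type banded was at least 2-fold above each of the other 3 for 240 (21.9%). Over all 5040 genes these shares were 32.9%, 12.4% and 4.76%, and a higher gene has the lower value on sham by its selection. Among the 647 lower genes, wild-type sham was the highest of the 4 for 603 (93.2%) and at least 2-fold above the other 3 for 113 (17.5%). Wild-type banded was at least 2-fold below the other 3 for 18 (2.78%). Over all 5040 genes these shares were 38.8%, 2.24% and 0.357%, and a lower gene has the higher value on sham by its selection. The differences also varied with brightness. From the lowest to the highest quartile of genes by the mean of the wild-type arrays, 25.2%, 25.7%, 21.1% and 15.0% were at least 2-fold higher and 8.17%, 17.1%, 18.1% and 8.02% lower. Ranked by 1 array alone, the share that was higher ran from 2.06% to 31.7% by the banded array and from 45.6% to 8.57% by the sham array, an order that the ranking partly fixes. The genes just inside the limit of 64 were Macir (64.1 and 17.7 in wild-type sham and banded), Xrcc6 (64.1 and 60.5) and P2rx5 (35.0 and 64), and those just outside it were Defb11 (63.9 and 24.6), Gngt1 (63.9 and 35.4) and Slc22a17 (63.9 and 52.3).

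Probe sets of the same gene often gave different answers. Of 1020 genes with more than 1 probe set at 64 or more on both wild-type arrays, 528 (51.8%) had probe sets whose differences were at least 2-fold apart, against 18.4% in the IL-18 null pair, and 33 had probe sets past 2-fold in both directions. Pdlim5, a Z-disc protein with PDZ and LIM domains, had the widest range, with differences of -1.04, 0.22 and 5.25 from its 3 probe sets. Vdac1, the channel of the outer mitochondrial membrane, had 3 probe sets between -0.28 and 0.03 and the other at 4.12. Among genes with 3 or more such probe sets, those that moved the same way in all included Tpi1 (2.24, 2.44 and 4.06), Timp2 (1.62, 2.65 and 2.73), Snhg1 (-1.78 to -1.59) and Marcksl1 (-1.51, -2.24 and -2.35).

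**Figure D3:**
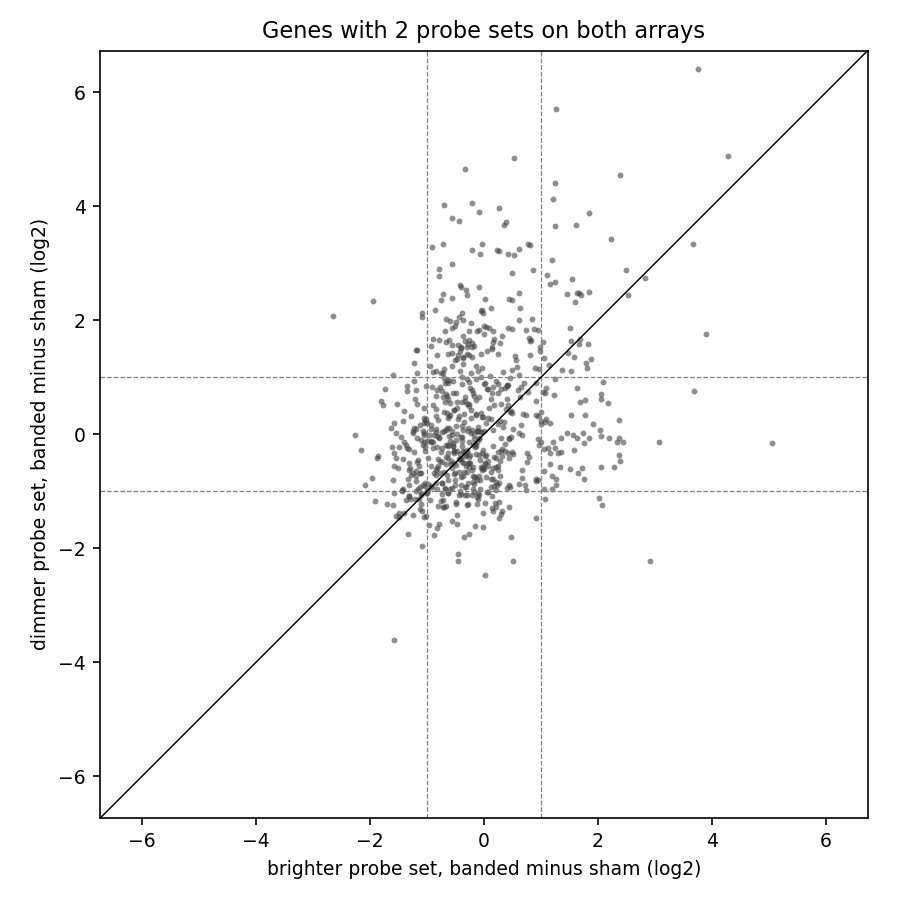
Banded minus sham difference (log2) of the brighter probe set (horizontal axis) and of the dimmer probe set (vertical axis) for the 739 genes with 2 probe sets at 64 or more on both wild-type arrays; 1 point per gene, the solid line is equality and the dashed lines are 2-fold. In 41 genes both probe sets are at least 2-fold higher, in 27 both are at least 2-fold lower, and in 13 they pass 2-fold in opposite directions. The dimmer probe set is at least 2-fold higher in banded for 188 genes, against 107 for the brighter one.

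Promoter sequence was taken for Fos, Egr2, Btg2, Des, Acta1 and Myl4, which had large differences in the immediate-early and hypertrophy lists. It is shown for the 3 that held a match to the motifs searched. These are Fos and Btg2, immediate-early genes that were lower in wild-type banded by the probe set used, and Acta1. The other probe set of Btg2 gave 2.08. Acta1 was the hypertrophy gene with the largest difference that reached 64 on both arrays. Each line holds the 250 bases before the transcription start, 5′ to 3′ on the gene's strand, from RefSeq on GRCm38.p6, with capitals marking the matches to the motifs searched. Fos lies at chr12:85473640-85473889 on the plus strand, Btg2 at chr1:134079156-134079405 on the minus strand and Acta1 at chr8:123894776-123895025 on the minus strand.

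Fos: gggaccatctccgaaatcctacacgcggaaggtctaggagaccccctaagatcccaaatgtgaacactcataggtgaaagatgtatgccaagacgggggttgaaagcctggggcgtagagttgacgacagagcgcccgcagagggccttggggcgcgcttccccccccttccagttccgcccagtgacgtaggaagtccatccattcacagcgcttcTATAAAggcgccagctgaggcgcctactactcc

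Btg2: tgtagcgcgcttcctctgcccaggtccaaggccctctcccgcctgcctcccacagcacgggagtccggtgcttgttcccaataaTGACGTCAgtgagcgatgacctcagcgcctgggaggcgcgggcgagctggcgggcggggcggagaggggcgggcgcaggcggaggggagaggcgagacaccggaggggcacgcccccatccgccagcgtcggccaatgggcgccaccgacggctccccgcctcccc

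Acta1: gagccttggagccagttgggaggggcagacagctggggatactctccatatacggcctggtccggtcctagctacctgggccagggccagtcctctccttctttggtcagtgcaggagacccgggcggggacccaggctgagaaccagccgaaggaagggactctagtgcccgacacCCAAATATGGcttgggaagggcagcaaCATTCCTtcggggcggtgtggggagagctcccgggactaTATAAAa

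The motifs were the CArG box bound by serum response factor, the TATA element TATAAA, the cyclic AMP response element TGACGTCA, the AP-1 site TGAGTCA and the TEAD site CATTCCT, searched on both strands. Fos had TATAAA from 33 to 28 bases before its start, and Btg2 had TGACGTCA from 166 to 159 bases before its start. Acta1 had a CArG box, CCAAATATGG, from 73 to 64 bases, CATTCCT from 46 to 40 bases and TATAAA from 7 to 2 bases before its annotated start. Des, Myl4 and the first listed start of Egr2 held none of these motifs in the window. Across 32851 promoters of the same length the CArG box was found in 1.47%, TATAAA in 12.4%, TGACGTCA in 1.55%, TGAGTCA in 4.46% and CATTCCT in 4.51%. Of the 33 immediate-early genes with a RefSeq promoter, 2 had a CArG box (Egr2 and Zfp36) and 3 TGACGTCA (Btg2, Dusp1 and Maff), and of 23 hypertrophy genes 3 had a CArG box (Acta1, Fhl1 and Myl7) and 8 CATTCCT. These list counts are per gene and take in other listed starts, as for Egr2, which has 5. The shares over 32851 promoters are per promoter, so the list counts cannot be set directly against them. A match of letters shows neither binding nor a cause.

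Many genes of the hypertrophy programme were higher in wild-type banded. Of 28 genes on the list, 26 were on the array, 22 were measured, 12 were at least 2-fold higher and 0 lower, with a median of 1.18 against -0.08 over all genes and 54.5% higher against 21.7%. In the IL-18 null pair 10 of 23 were higher and 0 lower (median 0.49). For 5 of the 12, wild-type sham was at least 2-fold below the other 3 arrays.

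Nppa, which encodes atrial natriuretic peptide, had intensities of 2721.7, 7217.4, 2315.9 and 13125.8, a wild-type difference of 1.41 and an IL-18 null difference of 2.50. Nppb, which encodes the B-type peptide, had 2417.9, 6306.9, 3607.0 and 7945.8, and differed by 1.38 and 1.14. Both banded arrays were above both sham arrays for the 2 peptides, and the sham arrays lay close together for Nppa.

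Myh7, the slow myosin heavy chain that rodent ventricles carry before birth, had intensities of 309.5, 1156.0, 473.5 and 4725.3, with differences of 1.90 and 3.32. Its banded values were above both sham values, and the wild-type banded value was the lower of the 2 banded ones. Acta1, skeletal alpha-actin, had 142.5, 10768.9, 2950.1 and 10429.7, and differed by 6.24 in wild type and by 1.82 in the IL-18 null pair. The banded arrays were alike for Acta1 and the sham arrays were not, so most of the distance between its differences came from the wild-type sham value.

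Rcan1, a target and modulator of calcineurin, had intensities of 107.5, 523.6, 294.9 and 1640.5 and differed by 2.28; its other measured probe set differed by at least 0.87. Vim, the intermediate filament of fibroblasts and vessel cells, differed by 1.48 (1954.4, 5448.3, 3787.7 and 8674.3), but its other probe sets gave 0.03 and 0.72. Postn, periostin, a matrix protein of activated fibroblasts, differed by 1.23 in wild type and by 3.37 in the IL-18 null pair (932.2, 2188.3, 851.5 and 8791.1). Each of these 3 genes was higher on both banded arrays than on both sham arrays.

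Another group of hypertrophy genes differed in wild type with IL-18 null sham already above wild-type sham. Des, desmin, the muscle intermediate filament, had 6.6, 5593.1, 1130.9 and 1352.1 and differed by at least 6.45, against 0.26 in IL-18 null. Xirp1, an actin-binding protein of intercalated discs, had 50.1, 566.3, 244.0 and 442.0 and differed by at least 3.15. Gata4, a cardiac transcription factor, had 7.2, 402.7, 117.6 and 70.7 and differed by at least 2.65.

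Myl4, the atrial and fetal essential light chain, differed by 2.59 (253.3, 1523.3, 660.6 and 770.8), and Tpm1, alpha-tropomyosin, by 1.14 (14639.1, 32202.6, 26638.2 and 28933.2). For Des, Xirp1, Gata4, Myl4 and Tpm1 the IL-18 null arrays were nearer to each other than the wild-type arrays were, and both lay above wild-type sham.

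The 10 hypertrophy genes within 2-fold were Myl7 (0.97), Ccn2 (0.78), Mef2c (0.72), Ankrd1 (0.53), Ace (0.47), Csrp3 (0.36), Enah (0.18), Fhl1 (-0.02), Acta2 (-0.33) and Camk2d (-0.75). Ccn2, connective tissue growth factor, differed by 3.02 in IL-18 null. Ankrd1, a stretch-responsive titin-binding protein, had a second probe set at 4.84. Nfatc4, Nppc, Uchl1 and Timp1 were under 64 on both wild-type arrays, and Timp1, an inhibitor of metalloproteinases, read 4.5, 33.2, 4.1 and 1327.3. In bulk tissue a lower level cannot be told apart from fewer cells of the type that makes the transcript.

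**Figure D4:**
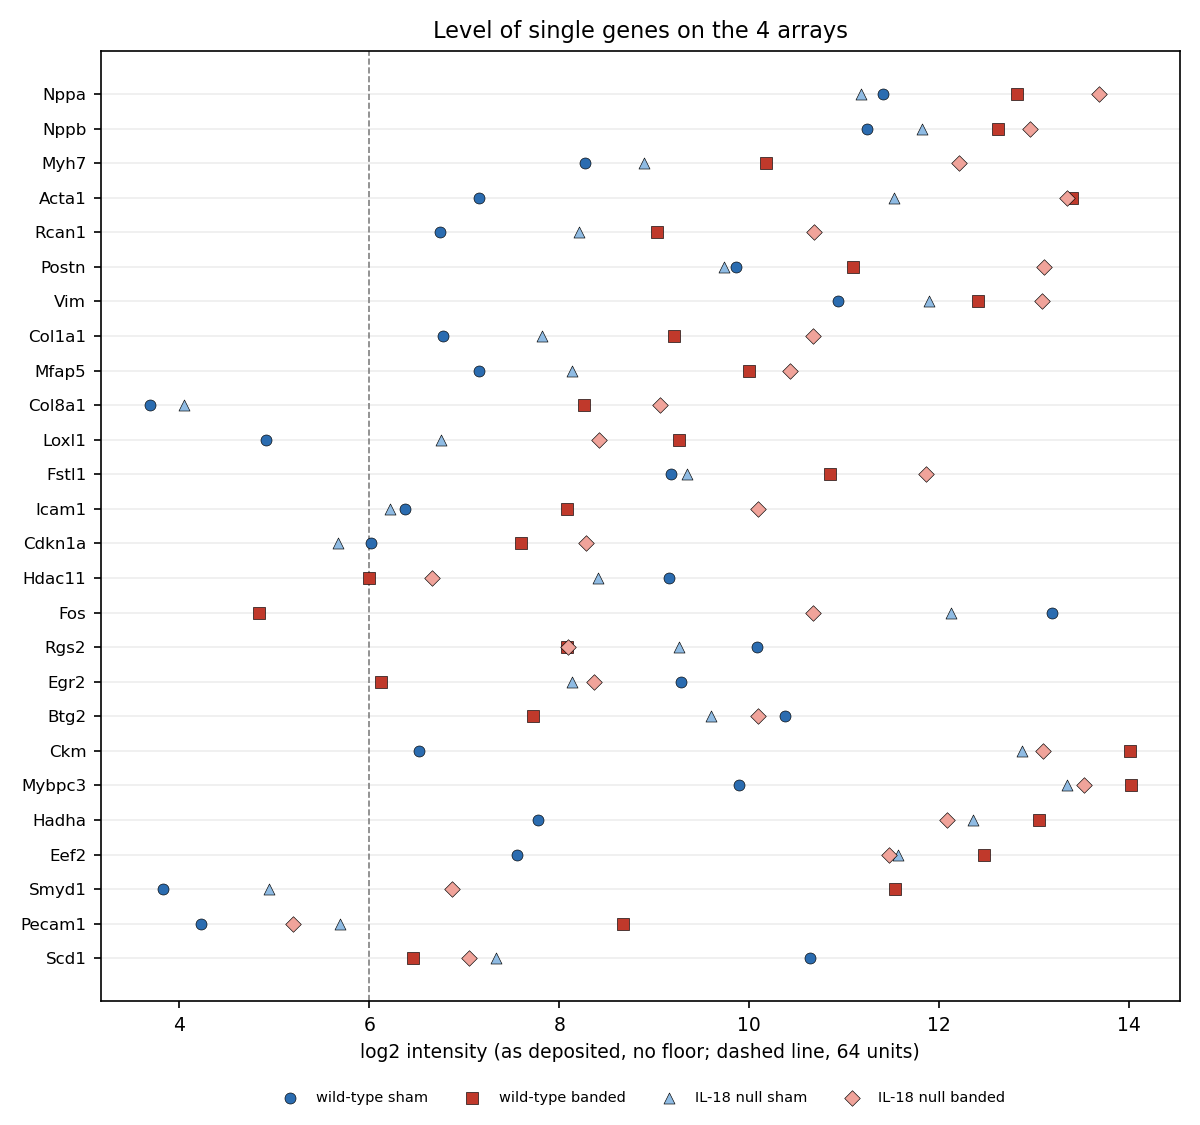
Log2 intensity as deposited (horizontal axis, no floor; dashed line, 64 units) of 26 genes on the 4 arrays, 1 symbol per array; the genes were picked after their values were seen, to show the patterns described. For Nppa, Nppb, Myh7, Acta1, Postn and Col8a1 both banded arrays lie to the right of both sham arrays, for Ckm, Mybpc3, Hadha and Eef2 wild-type sham alone lies to the left, and for Fos and Egr2 wild-type banded alone is the lowest by a wide margin.

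Contractile genes divided between those that differed little and those that were faint on the sham array. Over all genes 21.7% were at least 2-fold higher and 12.8% lower. Thick-filament genes had 9 of 14 measured members at least 2-fold higher and 0 lower (64.3% higher, median 1.40). Z-disc and titin-associated genes had 11 of 19 and 0 (57.9%, median 1.501), and thin-filament genes 6 of 16 and 0 (37.5%, median 0.68). Wild-type sham was at least 2-fold below the other 3 arrays for 5, 7 and 2 of these. In the IL-18 null pair the counts were 2 of 14, 2 of 17 and 1 of 15 higher, with 0 lower.

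Myh6, the adult fast myosin heavy chain, had intensities of 35858.6, 39738.1, 33514.9 and 36866.0 and differed by 0.15, but its other measured probe set differed by at least 4.50. Myl2 and Myl3, the ventricular regulatory and essential light chains, differed by 0.06 and 0.06, while 1 further probe set of Myl3 gave 2.43. Tnni3, cardiac troponin I, differed by 0.48 and Tnnt2, cardiac troponin T, by 0.73. These 5 genes of the adult sarcomere were within 2-fold by the probe set used for each.

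Mybpc3, cardiac myosin-binding protein C, had intensities of 948.5, 16556.4, 10370.9 and 11767.0 and differed by 4.13. Myom2, an M-band protein, had 194.5, 5602.0, 1854.7 and 1875.6 and differed by 4.85. Actn2, the alpha-actinin of the Z-disc, had 429.1, 9434.5, 4536.4 and 5240.9 and differed by 4.46. For all 3 the wild-type sham array was far below the other arrays.

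Tcap, which ties titin to the Z-disc, differed by 3.77 (586.2 and 7989.0 in wild type), and Bag3, a co-chaperone for stretched Z-disc proteins, by at least 5.45 (39.5 and 2797.1). Trim54, Xirp1, Nrap, Pdlim1, Pdlim7, Flnc and Fhl2 made up, with Des, the other Z-disc genes past 2-fold. Smyd1, a muscle methyltransferase needed for sarcomere assembly, was high on the wild-type banded array alone, at 14.2, 2966.8, 30.7 and 117.0, and differed by at least 5.54.

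Calcium handling gave a mixed picture, with shares not far from those of all genes. Of 20 measured genes of the sarcoplasmic reticulum 6 passed 2-fold upward and 2 downward (median 0.72). The upward share was 30.0%, against 21.7% of all genes, and the downward share was under the 12.8% of all genes. Atp2a2, the calcium pump of the reticulum, had intensities of 13640.6, 19889.4, 19215.2 and 16755.6 and differed by 0.54, and its other 3 probe sets gave 0.03, 1.02 and at least 4.36.

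Calr, the calcium-binding chaperone calreticulin, had 159.0, 4122.5, 1992.5 and 4240.7 and differed by 4.70, with its other probe sets, both faint on sham, at bounds of at least 4.69 and 4.80. Casq2, cardiac calsequestrin, differed by 1.26 (3100.8, 7446.4, 7201.5 and 8152.5). Slc8a1, the sodium-calcium exchanger, was lower, at -1.21 or below (147.8, 55.0, 98.2 and 82.8). Of the calcineurin genes, Ppp3r1, the regulatory subunit, differed by at least 4.22, the catalytic subunit Ppp3ca by -1.17 with other probe sets at 0.06 and 0.76, and Rcan2 by 1.54.

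Extracellular matrix genes were higher in wild-type banded in the collagen and the basement-membrane lists. Of 15 measured genes of fibrillar collagen and its cross-linking 9 passed 2-fold upward and 0 downward (60.0%, median 1.03; 5 of 14 upward after quantile normalization), and of 19 basement-membrane genes 12 were higher and 1 lower (63.2%, median 1.64). In IL-18 null 8 of 14 and 9 of 19 were higher and 0 lower, with medians of 1.501 and 0.86. Wild-type sham was at least 2-fold below the other 3 arrays for 5 and 7 of these genes.

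Col1a1, the main chain of type I collagen, had intensities of 109.7, 591.0, 225.9 and 1632.9 and differed by 2.43 in wild type and by 2.85 in the IL-18 null pair, while its other measured probe set gave -0.14 in wild type. Col1a2 and Col3a1, which complete the fibrillar collagens of the heart, were at 1.07 and 1.03. Col8a1, a short-chain collagen, had 12.9, 306.8, 16.6 and 532.5, under 64 on both sham arrays and above it on both banded arrays, and differed by at least 2.26 in wild type. Loxl1, a lysyl oxidase that cross-links elastin and collagen, had 30.1, 613.5, 107.7 and 342.6 and differed by at least 3.26.

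P4hb, a subunit of the collagen prolyl hydroxylase and a disulfide isomerase, had 8.0, 2475.9, 951.0 and 1260.8 and differed by at least 5.27, but by 0.41 in IL-18 null. P4ha1, the catalytic subunit, differed by at least 2.40 (60.6, 338.2, 189.3 and 234.0). For both enzymes IL-18 null sham was already above wild-type sham.

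Col6a3, a chain of the microfibrillar type VI collagen, had 42.9, 526.9, 230.5 and 680.9 and differed by at least 3.04. Col4a2, of the type IV network, had 257.3, 1450.4, 1115.6 and 2257.0 and differed by 2.50. The laminin genes Lamb2 and Lama4 had 51.2, 832.3, 373.0 and 309.7 and 11.5, 565.9, 159.6 and 246.2, and differed by at least 3.70 and 3.14. Col6a3 was higher on both banded arrays than on both sham arrays, and Lamb2 was not.

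Among matricellular and microfibril genes 8 of 21 passed 2-fold upward and 2 downward (median 0.68), against 10 and 1 of 21 in IL-18 null. The wild-type shares were 38.1% and 9.52%, against 21.7% and 12.8% of all genes. Mfap5, a microfibril glycoprotein, had 142.4, 1021.1, 280.6 and 1374.3 and differed by 2.84 and 2.29, with at least 0.80 from its other probe set in wild type. Dcn, decorin, which coats collagen fibrils, had 1330.4, 10343.6, 5804.8 and 7040.9, and differed by 2.96 in wild type and by 0.28 in the IL-18 null pair. The sham arrays differed from each other more for Dcn than the IL-18 null arrays did.

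Metalloproteinases and their inhibitors went both ways, with 3 of 12 genes at least 2-fold higher and 3 lower (median -0.81, and 0.08 with the mean of all probe sets). Mmp2, gelatinase A, had 50.5, 362.6, 154.2 and 582.1 and differed by at least 2.50, with at least 3.14 from another probe set. Timp2, an inhibitor that also takes part in activating Mmp2, had 190.2, 1262.1, 856.2 and 881.3 and differed by 2.73, and Timp3 by 1.73 with other probe sets at 0.03 and at least 0.79. Adam10, a membrane sheddase, was lower at -1.33 (1808.5, 719.3, 1110.0 and 1236.8). The TGF-beta, BMP and IGF list had 5 of 21 genes higher (23.8%, near the 21.7% of all genes) and 1 lower (median -0.10, and 0.10 after cyclic loess), the highest being Igfbp4 at 2.29, whose other 4 measured probe sets, all under 64 on sham, gave bounds from 1.41 to 4.40, and Eng at 1.83. Its lower member was Tgfbi at -1.47, with bounds of -0.23 and -0.58 or below from other probe sets. Fstl1, a secreted follistatin-like protein, had 579.2, 1842.4, 649.1 and 3726.2 and differed by 1.67, with 2.49 from its other probe set.

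**Figure D5:**
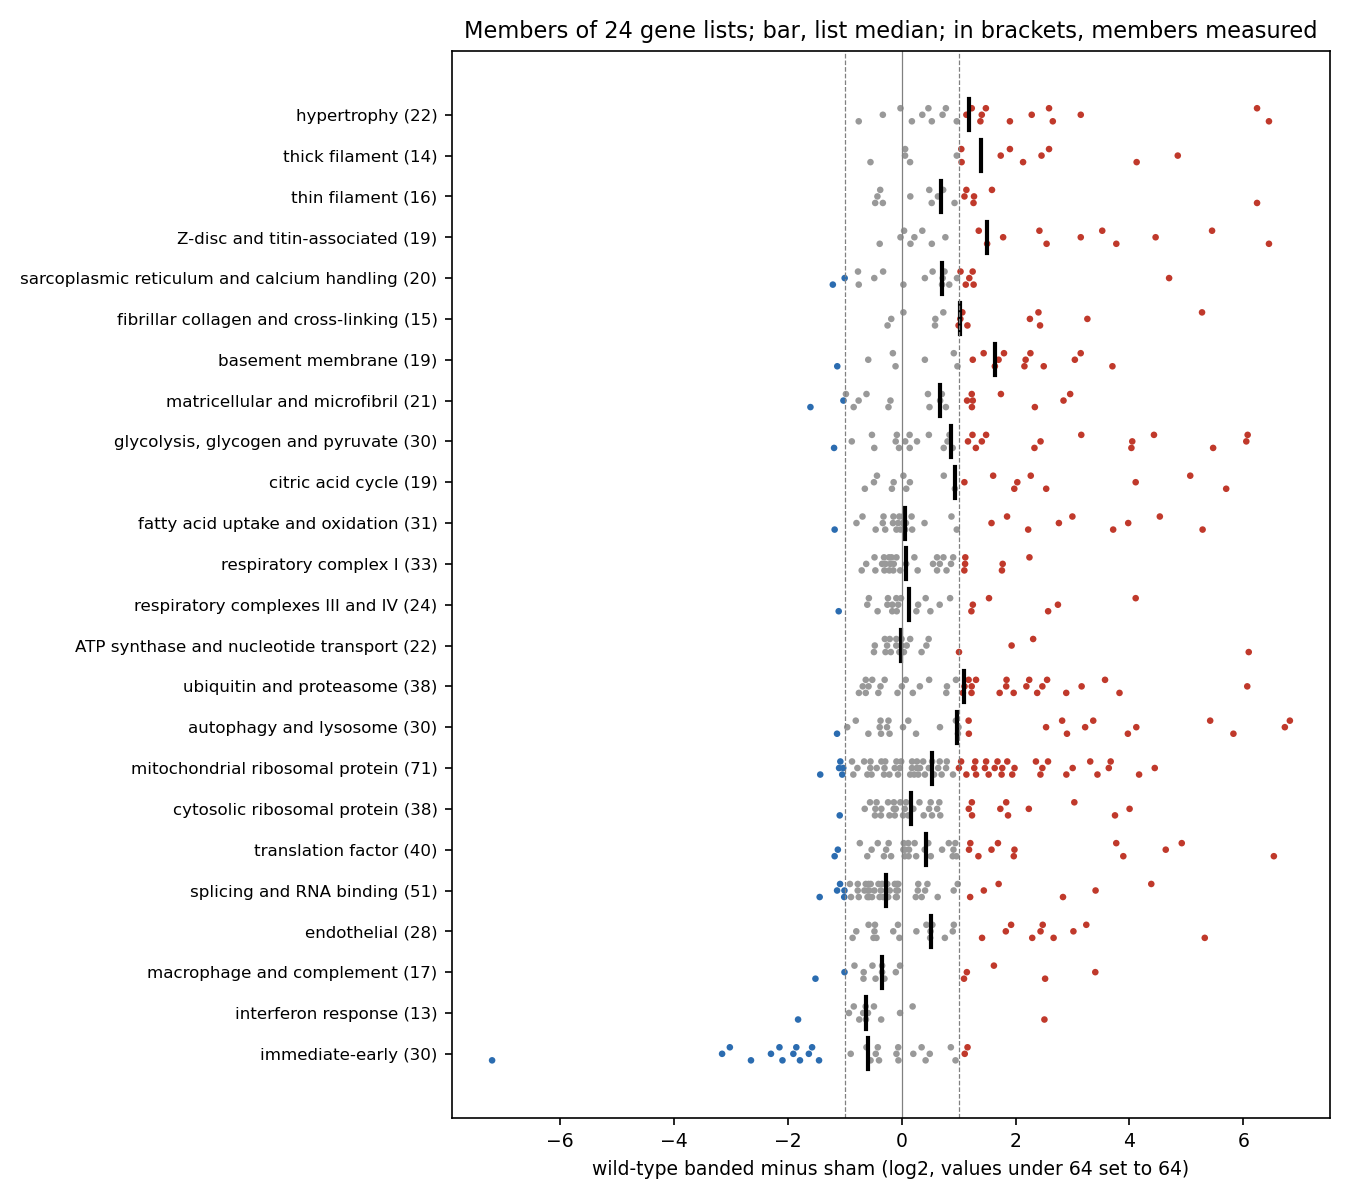
Banded minus sham difference in wild type (horizontal axis, log2, values under 64 set to 64) of each measured member of 24 of the gene lists (rows, with the number measured), 1 point per gene, bar at the list's median, red and blue at least 2-fold higher or lower. The medians of the thick-filament, Z-disc and basement-membrane lists lie at 1.40, 1.501 and 1.64, those of complex I and ATP synthase near 0, and that of the immediate-early list at -0.58.

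Energy metabolism held several of the largest single differences, with list medians that varied. Glycolysis, glycogen and pyruvate genes had 14 of 30 at least 2-fold higher and 1 lower (median 0.87), citric acid cycle genes 9 of 19 and 0 (median 0.94), and fatty acid uptake and oxidation genes 9 of 31 and 1 (median 0.06, and -0.14 after quantile normalization). Respiratory complex I had 6 of 33 higher and 0 lower (median 0.08), complexes III and IV 6 of 24 and 1 (median 0.12), and ATP synthase with nucleotide transport 4 of 22 and 0 (median -0.003). These 3 medians changed sign with the scaling, to -0.16 and -0.04 after quantile normalization and to 0.10 after cyclic loess. The higher shares were 46.7% for the glycolysis list and 47.4% for the citric acid cycle. Those of the last 4 lists, from 18.2% to 29.0%, were near the 21.7% of all genes. Over these 6 lists the IL-18 null pair had 1, 0, 1, 0, 0 and 0 genes at least 2-fold higher and 0, 1, 3, 0, 0 and 1 lower. Wild-type sham was at least 2-fold below the other 3 arrays for 11, 8, 8, 3, 3 and 3 genes in the same order.

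Ckm, muscle creatine kinase, had intensities of 92.0, 16531.1, 7485.6 and 8713.3 and the largest difference of all genes, 7.49. Pfkm, muscle phosphofructokinase, had 90.2, 5981.6, 3474.1 and 2551.8 and differed by 6.05, and Pygm, muscle glycogen phosphorylase, had 23.2, 4315.8, 2416.4 and 1986.4 and differed by at least 6.08. Pdk2, a kinase that inhibits pyruvate dehydrogenase, had 31.0, 2834.0, 1332.8 and 696.8 and differed by at least 5.47. In each of the 4 genes wild-type sham was low and the IL-18 null arrays were within 2-fold of each other.

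Tpi1, triosephosphate isomerase, was higher by all 3 of its probe sets, and Aldoa, aldolase A, by all 4, from 1.48 to 4.57. The single lower gene of this list was Slc2a1, the basal glucose transporter, at -1.19, while Slc2a4, the insulin-responsive transporter of muscle, was at 3.15. Ldha, lactate dehydrogenase A, was at 1.41, and Ldhb, the form that prevails in heart, at -0.48 with other probe sets from -0.15 to 0.33.

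Hadha, the trifunctional protein's alpha subunit in beta-oxidation, had 218.3, 8503.1, 5226.9 and 4333.0 and differed by 5.28. Acacb, which makes the malonyl-CoA that restrains fatty acid entry into mitochondria, had 68.9, 1595.4, 530.2 and 277.5 and differed by 4.53. Echs1 and Acads, enzymes of the same spiral, differed by 3.98 and 3.71. Fabp3, the fatty-acid-binding protein of heart, differed by 1.85 (6735.4, 24300.9, 21883.1 and 24870.0).

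Lpl, lipoprotein lipase, and Hadh, another beta-oxidation enzyme, differed by -0.14 and -0.29, though a further probe set of each gave 1.20 and 2.51. Another Hadh probe set gave -0.97. Ppargc1a, a coactivator of mitochondrial genes, was the single lower member, at -1.18. Of the 31 genes of fatty acid use 21 stayed within 2-fold.

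In the citric acid cycle, Ogdh, a subunit of the oxoglutarate dehydrogenase complex, had 158.3, 5304.6, 5159.5 and 2285.1 and differed by 5.07. Sdhc, a membrane anchor of succinate dehydrogenase, had 54.6, 3323.2, 1761.5 and 1654.8 and differed by at least 5.70, with 4.85 from its other probe set. Got1 and Got2, the transaminases of the malate-aspartate shuttle, differed by 4.11 and 2.54, with at least 5.35 from another Got2 probe set. For all 4 genes wild-type sham was the lowest array.

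Of the respiratory chain, Uqcrc1, a core subunit of complex III, had 478.7, 8262.1, 6462.9 and 4234.2 and differed by 4.11, while its partner Uqcrc2 differed by -0.09 (25422.8 and 23950.4 in wild type). Atp5g2, a gene for subunit c of ATP synthase, had 69.2, 4728.5, 2703.2 and 1243.1 and differed by 6.09, while Atp5g1, another gene for the same subunit, differed by 2.31. Ndufs8, of complex I, differed by 2.24, and its other 4 probe sets ranged from 0.62 to 4.59. Ndufs4 differed by 1.76, with other probe sets at -0.18 or below and at -0.79. Slc25a4, the heart's ADP/ATP carrier, differed by 0.35. Subunits of a single complex therefore differed from each other by more than 2-fold, and so did probe sets of a single subunit.

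Many genes of protein breakdown were higher in wild-type banded. Of 38 measured genes of ubiquitin and the proteasome 20 passed 2-fold upward and 0 downward (52.6%, median 1.09), and of 30 genes of autophagy and the lysosome 13 were higher and 1 lower (43.3%, median 0.97). In IL-18 null 1 of 38 and 1 of 30 were higher, and 1 and 2 were lower. Wild-type sham was at least 2-fold below the other 3 arrays for 12 and 9 of these genes.

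Vcp, an ATPase that extracts ubiquitinated proteins, had 28.6, 4294.6, 1920.0 and 2098.5 and differed by at least 6.07. Of the proteasome base and lid, Psmd2 differed by 3.57, and Psmd8 and Psmc1 by bounds of at least 3.83 and 3.16. The core subunits Psma1, Psma4, Psma7, Psmb4, Psmb5, Psmb6 and Psmb7 differed by 1.10 to 2.24. The other probe set of Psmb4 gave -0.06 and that of Psma7 gave 3.88. Further base and lid subunits stayed within 2-fold by their brighter probe set: Psmc4 at 0.80, Psmc6 at -0.30, Psmd6 at -0.41 and Psmc2 at -0.68. So did the core subunit Psma5, at -0.63. Map1lc3a, a coat protein of autophagosomes, had 65.0, 7322.9, 2162.7 and 1906.4 and differed by 6.82.

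Sqstm1, the autophagy receptor p62, had 13.1, 3628.8, 2264.1 and 1902.5 and differed by at least 5.83, and Gabarap, an LC3 relative, had 43.9, 2734.8, 876.8 and 816.5 and differed by at least 5.42. Ctsd, the lysosomal protease cathepsin D, had 48.8, 6784.3, 1561.5 and 2169.0 and differed by at least 6.73. Atp6v1a, a subunit of the proton pump that acidifies lysosomes, was the single lower member, at -1.13 or below. All 4 genes with large differences here had wild-type sham at the bottom of the 4 arrays.

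Protein synthesis genes differed by branch. Mitochondrial ribosomal protein genes had 28 of 71 measured members at least 2-fold higher and 5 lower (39.4% and 7.04%, median 0.54). Cytosolic ones had 10 of 38 and 1 (26.3% and 2.63%, median 0.16, and -0.03 after quantile normalization). Translation factors had 12 of 40 and 2 (30.0% and 5.0%, median 0.44). All genes had 21.7% higher and 12.8% lower. In IL-18 null the higher counts were 1, 1 and 2 and the lower counts 1, 0 and 0. Wild-type sham was at least 2-fold below the other 3 arrays for 21, 10 and 8 genes in the same order. Splicing and RNA-binding genes had 6 of 51 higher and 5 lower (11.8% and 9.8%), with a median of -0.27, below that of all genes.

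Mrpl12, of the large mitochondrial subunit, had 85.3, 1857.2, 1209.7 and 1872.6 and differed by 4.44, and Mrps18a, of the small subunit, had 51.5, 1151.0, 480.4 and 325.4 and differed by at least 4.17. Mrpl44, Mrpl52, Mrpl39, Mrpl41 and Mrpl22 were lower, at -1.43 to -1.02. Rplp0, of the ribosomal stalk and a common reference gene, had 967.8, 15507.4, 11706.1 and 11984.6 and differed by 4.00.

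Eif5a, an elongation factor that carries hypusine, had 83.5, 7745.7, 2259.7 and 2231.9 and differed by 6.54, with at least 2.38 from its other probe set. Eef2, the translocase of the ribosome, had 188.1, 5688.4, 3021.8 and 2843.3 and differed by 4.92. Of 14 measured reference genes 3 were at least 2-fold higher (Actb, Rplp0 and Eef2) and 1 lower (Hprt, -1.04). Actb, by its ordinary probe set, had 895.4, 2161.5, 3245.8 and 4028.0 and differed by 1.27, with 5.70 from another probe set, and no probe set of Gapdh outside the controls had a single gene.

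A share of the immediate-early genes was far lower in wild-type banded. Of 46 genes 43 were on the array and 30 were measured, and 13 were at least 2-fold lower, 15 within 2-fold and 2 higher (43.3% lower against 12.8% of all genes, 6.67% higher, median -0.58). In IL-18 null 5 of 33 were lower and 11 higher, with a median of 0.53. The 2 higher members in wild type were Zfp36l2, which encodes an RNA-binding protein that promotes transcript decay, at 1.16, and Rhob, a small GTPase, at 1.11.

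Fos, a subunit of AP-1, had intensities of 9347.3, 28.7, 4468.7 and 1632.4, a wild-type difference of -7.19 or below and an IL-18 null difference of -1.45. Egr2, a zinc-finger factor, had 620.5, 69.8, 281.2 and 328.8 and differed by -3.15, with -1.74 or below from its other probe set. Egr1, its relative, had 3424.7, 994.1, 4733.2 and 3675.6 and differed by -1.78. For these 3 genes wild-type banded was at least 2-fold below each of the other 3 arrays, the sham arrays included.

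Btg2, an antiproliferative gene, had 1325.4, 211.9, 774.0 and 1088.6 and differed by -2.65, but its other probe set gave 2.08. Btg1, its relative, had 1488.5, 349.2, 806.0 and 1658.2 and differed by -2.09, and Gadd45a, a stress sensor, had 388.8, 87.9, 355.8 and 324.4 and differed by -2.15. Wild-type banded was again the low array by at least 2-fold. Over all genes measured on any array that held for 18 of 5158 (0.349%), of which Fos, Egr2, Egr1, Btg1, Btg2 and Gadd45a are 6; they were picked out after the values were seen.

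Nfkbiz, a nuclear partner of NF-kappa-B, had 748.2, 92.5, 88.1 and 1145.4 and differed by -3.02, Atf3, a stress factor, had 327.7 and 66.8 in wild type and differed by -2.29, and Socs3, a feedback inhibitor of cytokine signalling, had 561.2, 188.8, 328.3 and 5263.4 and differed by -1.57, with -3.61 from its other probe set. Wild-type sham was above IL-18 null sham for each. The MAP kinase phosphatases Dusp1 and Dusp6 differed by -1.90 (5074.3, 1358.7, 1936.2 and 2241.2) and -1.63 (1062.5, 343.6, 330.5 and 598.0). Their list had 4 of 17 genes lower and 1 higher (median -0.15, and 0.04 after cyclic loess). These shares were 23.5% and 5.88%, against 12.8% lower and 21.7% higher over all genes.

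Inflammatory genes differed by list in wild type. The IL-18 and IL-1 axis had 25 genes, of which 23 were on the array and 6 measured, with 0 past 2-fold in either direction (median -0.09, and 0.12 after cyclic loess). Il18 itself read 9.1, 7.4, 8.2 and 8.4, under 64 on every array, so it did not check the genotype labels. Il1r1, the IL-1 receptor, differed by -0.41, Pycard, the inflammasome adaptor, by -0.47, Ifngr1, an interferon-gamma receptor chain, by 0.16 and Tnfrsf1a, a TNF receptor, by 0.44. In IL-18 null 2 of 8 were higher and 0 lower.

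Icam1, an adhesion molecule for leukocytes, had 83.3, 270.9, 74.2 and 1088.0 and differed by 1.70 in wild type and by 3.87 in the IL-18 null pair. Its list of chemokines and adhesion molecules had 4 higher and 0 lower of 9 measured (44.4%, median 0.63), the others being Icam2, Cxcl1 and Cxcl12. Of 13 interferon-response genes 1 was higher and 1 lower (median -0.63): Irf1, the interferon regulatory factor, at 2.51 (117.8, 669.5, 288.4 and 857.5), and Gbp3, a guanylate-binding protein, at -1.82 (430.6, 122.1, 166.4 and 186.5). Of 12 antigen-presentation genes 6 were higher and 0 lower (median 0.90), led by H2-D1, a class I heavy chain, with 49.7, 3211.1, 1393.7 and 2078.6 and bounds from 1.64 to 5.45 from its other measured probe sets. Cd74, the class II invariant chain, had 58.8, 1034.5, 537.3 and 1219.1 and differed by at least 4.01.

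Macrophage and complement genes had 5 of 17 higher and 2 lower, with a median of -0.34, against 10 and 0 of 17 and 1.22 in IL-18 null. The wild-type shares were 29.4% and 11.8%, against 21.7% and 12.8% of all genes. C1qc, a chain of complement C1q, had 36.6, 675.4, 203.5 and 558.3 and differed by at least 3.40, while C1qa, another chain, had 6.6, 366.9, 6.3 and 6.3 and was high on the wild-type banded array alone. Lyz2, the lysozyme of macrophages, differed by 1.62 (887.3, 2727.1, 1606.9 and 3051.0). The macrophage markers Adgre1, Csf1r and Mrc1 were within 2-fold, at -0.30, -0.67 and -0.67, and C1qb was at 1.095. The 6 macrophage markers summed to 3243.1, 3108.4, 2167.5 and 4996.2. Ptprc, the leukocyte antigen CD45, was lower in wild type, at -1.51 or below (182.7, 56.5, 85.9 and 199.4).

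The neutrophil genes S100a9 and S100a8, which encode calprotectin, had 679.8, 58.7, 368.6 and 712.4 and 203.4, 11.1, 118.8 and 269.0, and differed by -3.41 or below and -1.67 or below. The summed intensity of the 3 neutrophil markers on the array was 889.7, 75.1, 493.3 and 987.3. Wild-type banded was the low array for both genes, as for Fos and Egr2, and the part of neutrophil RNA in the immediate-early differences was not tested.

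Of 28 measured endothelial genes 10 passed 2-fold upward and 0 downward (35.7%, median 0.52), against 0 and 1 of 24 in IL-18 null. Emcn, endomucin of capillary and venous endothelium, had 98.2, 929.2, 969.4 and 584.3 and differed by 3.24. Vegfb, a growth factor that acts on endothelium, had 53.1, 2559.9, 685.4 and 393.0 and differed by at least 5.32. Pecam1, the junction protein CD31, had 18.7, 406.8, 51.8 and 36.7, which was high on wild-type banded alone, and differed by at least 2.67. Sox18, an endothelial transcription factor, differed by 3.02 (66.4, 537.1, 260.3 and 287.2). The endothelial markers Cdh5, Kdr and Tek stayed within 2-fold, at -0.06, 0.435 and -0.80, and Tie1 differed by at least 0.76.

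Markers of other cell types were checked for the tissue label. All 10 ventricular cardiomyocyte markers were measured, 1 of them at least 2-fold higher, and their summed intensity was 192363.2, 252906.3, 238682.2 and 233772.0. The 5 atrial markers summed to 4278.0, 11140.6, 4085.2 and 15227.3, and the 6 fibroblast markers to 6233.6, 15701.8, 9558.2 and 13747.4, in both cases higher on the banded arrays. Nppa, which is also on the hypertrophy list, made up most of the atrial sum on every array. Of the 5 measured fibroblast markers Dcn and Col1a1 passed 2-fold upward in wild type, and Dcn made up most of the change in the sum, while Lum differed by 0.71, Dpt by -0.345 and Pdgfra by -0.61. Of the atrial list 2 of 6 measured genes were higher, Nppa and Myl4, while Myl7, the atrial regulatory light chain, differed by 0.97 and Sln, the atrial regulator sarcolipin, by 0.72. The part of atrial tissue in the Nppa and Myl4 differences was not tested.

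Markers of mast cells, B cells (Cd79a, Cd79b and Ms4a1), mesothelium, liver and lung were under 64 on every array, as far as they were on it. Ighm, from the wider list of T, NK and B cell genes, read 56.8, 71.3, 51.3 and 52.8. Of 6 measured adipocyte genes 1 was higher and 2 were lower in wild type. Cidea, a lipid-droplet protein, had 10.8, 503.8, 169.5 and 303.6 and differed by at least 2.98, Fabp4, a fatty-acid-binding protein of fat, differed by 0.06, and Car3 and Ucp1, of white and brown fat, were high on wild-type sham alone, at 408.0, 13.4, 27.6 and 19.9 and 139.6, 7.0, 7.8 and 7.6. The 6 skeletal-muscle markers summed to 194.6, 10804.6, 2992.0 and 10471.5; 5 of them were under 64 on all arrays, and the sum followed Acta1, a marker of that list as well as of hypertrophy. Of 5 measured sex-chromosome genes 0 were at least 2-fold higher or lower.

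Few genes separated banding from sham on all 4 arrays. Of the 5158 genes measured on any array, 49 (0.95%) were at least 2-fold higher on both banded arrays than on both sham arrays, and 7 (0.136%) were at least 2-fold lower. These patterns use the IL-18 null arrays as well, and were sought after the values had been seen. The 49 with the widest gaps were led by Col8a1, Mfap5, Acta1, Col6a2, Hsd17b12, Icam1 and Loxl1, with Nppa, Myh7, Col1a1, Mmp2, Fstl1, Tagln and C1qc further down.

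Hsd17b12, an enzyme of long-chain fatty acid elongation, had 102.0, 410.4, 102.9 and 339.3, and Col6a2, a type VI collagen chain, had 361.3, 1255.4, 307.6 and 2129.6. Meox1, a homeobox factor, had 81.5, 240.7, 81.0 and 265.1, Serpinf1, the secreted factor PEDF, had 67.0, 499.0, 164.6 and 516.4, and Cdkn1a, the cell-cycle inhibitor p21, had 64.6, 193.0, 50.9 and 310.5. In Hsd17b12, Col6a2 and Meox1 the sham arrays were within 2-fold of each other, as were the banded arrays, so these 3 genes set banded apart from sham without a low wild-type sham value.

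Uck2, a uridine kinase, had 58.0, 283.3, 100.3 and 788.1, and Cd34, an antigen of endothelial and progenitor cells, had 5.1, 1101.9, 236.6 and 654.2. The 7 lower genes were Hdac11, Fos, Vsir, Rgs2, Tceal1, Zdhhc14 and Pitpnc1. Hdac11, a histone deacetylase, had 569.7, 63.7, 338.3 and 101.3 and differed by -3.15 or below. Rgs2, which restrains signalling through Gq, had 1085.6, 271.1, 611.0 and 272.9 and differed by -2.002, and Vsir, an immune checkpoint molecule, had 232.3, 89.4, 298.5 and 89.8 and differed by -1.38. Both banded values of Rgs2 and of Vsir were nearly equal.

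Further genes were among those with the largest differences. Bsg, basigin, a chaperone of lactate transporters, had 95.4, 14590.0, 8477.6 and 5442.8 and differed by 7.26, Tecr, the last enzyme of fatty acid elongation, had 7.6, 6478.7, 3341.7 and 2375.9 and differed by at least 6.66, and Slc25a11, the mitochondrial oxoglutarate carrier, had 44.0, 4778.2, 3413.8 and 2340.3 and differed by at least 6.22. Tle5, a corepressor, had 66.4, 3212.0, 682.1 and 989.5 and differed by 5.60. In the first 3 of these genes wild-type sham alone was low.

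In the other direction, Scd1, a fatty acid desaturase, had 1589.3, 88.2, 161.6 and 132.2 and differed by -4.17, the largest lower difference among genes at 64 or more on both arrays. Cenpf, a kinetochore protein of dividing cells, had 712.2, 85.5, 142.6 and 82.2 and differed by -3.06, and Cited2, a coregulator needed for heart development, had 1825.6, 229.5, 528.8 and 305.5 and differed by -2.99. Sirt1, a deacetylase, had 788.4, 123.8, 243.2 and 195.3 and differed by -2.67. For these 4 genes wild-type sham was at least 2-fold above each of the other 3 arrays, and the IL-18 null sham array was not raised with it. The comparison of the sham arrays uses the same wild-type sham array as the banding comparison, so the 2 share that value. The genes Zfp281, Zfp110, Mfsd8, Tmtc4, Med21, Med30, Pnpt1, Trim34a, Haus3 and Trp53inp1 were lower too, at -2.62 to -2.28.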

How the data were processed

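The deposited table gave 1 intensity on a linear scale for each of 22690 probe sets and 4 arrays, which the authors made with GCRMA, as the submitters' processing notes name it. The GCRMA version and later scaling, if any, were not stated. Control probe sets (64), probe sets with several genes (691) or none (1555) in the platform annotation were left out of the gene comparison. Of the 20380 others, 20351 matched the RefSeq table by gene identifier, and 0 symbols changed.

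Intensities under 64 were set to 64 and log2 differences taken with pandas 2.3.3, with 2-fold (log2 1) as the limit for counting. The calculation was tested on simulated data. Named genes were the 20 largest differences in each direction at 64 or more on both arrays, the 10 largest bounds, up to 4 members of each of 61 gene lists, all hypertrophy genes, genes beside the limit of 64, genes whose probe sets ranged widest or moved most alike, and the brightest. Genes shown for their pattern over 4 arrays, and genes named within a list's count, were chosen after their values were seen. The members and lists were chosen with earlier results of these data known. Alternatives were other floors, quantile normalization and cyclic loess (limma 3.58.1), median centring, other probe set rules and a 1.5-fold limit. A planned split by protein length was not made.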

Additional observations from a re-analysis of the deposited data

Results flagged for a closer look

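Among the named genes 19 were 2-fold or more higher with banding in one genotype and at least 2-fold lower in the other. With 1 array per group the difference between genotypes was not tested, and no group was large enough to look for an outlying sample.

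Of these, 11 were lower with banding in wild type and higher in IL-18 null. Nfkbiz was at -3.02 in wild type and at 3.70 in the IL-18 null pair, Socs3 at -1.57 and 4.00, Atf3 at -2.29 and 2.49, and Errfi1, a feedback inhibitor of the EGF receptor, at -1.81 and 1.94. The leukocyte genes Ptprc and S100a8 were at -1.51 and 1.22 and at -1.67 and 1.18, and Tgfbi was at -1.47 and 1.45. Casq1, the calsequestrin of skeletal muscle, was at -1.0 and 1.86, Cntd1 at -2.88 and 1.46, Haus3 at -2.42 and 1.21, and Preb at -3.19 and 1.31. The wild-type values of S100a8, Ptprc, Casq1 and Preb are bounds.

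The genes with the opposite pattern included Ogdh (5.07 and -1.18), Atp5g2 (6.09 and -1.12) and the focal adhesion gene Tns1 (3.90 and -3.15). The protein kinase A genes Prkaca and Akap1 were at 3.75 (a bound) and -1.35 and at 2.46 and -1.29, and Abcc9, the sulfonylurea receptor of muscle potassium channels, at 1.20 and -2.73. The clock-controlled genes Dbp and Usp2 were at 1.20 and -1.13 and at 1.01 and -1.05. For Ogdh, Atp5g2, Tns1, Prkaca and Akap1 wild-type sham was the lower of the wild-type arrays and lay under IL-18 null sham.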

How the results depend on the processing

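The counts past 2-fold were 1264 higher and 792 lower with a floor of 32 or none, and 874 and 508 with a floor of log2 1 above the one used. The higher count ranged from 689, with both arrays at 64 or more, to 1264. The lower count was 1272 after quantile normalization, 426 after cyclic loess, 430 with median centring, 304 with the mean of all probe sets and 1377 at 1.5-fold, where 1461 were higher. All 852 genes higher after quantile normalization were among the 1096, and so were 786 of 993 with the mean of all probe sets. The spread of 3′ bias between the wild-type arrays, the mean over Gapdh and Actb of the change in 3′ minus middle, was 3.82, and 2.86 with the floor, 3.90 after quantile normalization and 3.87 after cyclic loess.

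Differences changed sign for Eif4ebp1 (-0.37) and Kcnk3 (-0.33) with the probe set chosen on the wild-type arrays, Ndufs4 (-0.054) with the mean of all probe sets, and Ppp3ca (0.76) without shared probe sets. With the mean of all probe sets, which left fewer genes in all these lists but the last, medians turned from below 0 to 0.29 for nerve and Schwann (1 gene left), 0.08 for metalloproteinases, 0.555 for the cell cycle, 0.53 for NF-kappa-B, 0.44 for the IL-18 and IL-1 axis, 0.14 for MAP kinases, 0.34 for PI3 kinase, 1.08 for integrins, 0.82 for Wnt and Hippo, 0.42 for adipocytes, 0.97 for cardiac transcription factors, 0.49 for lipid synthesis and 0.02 for ATP synthase. The complex I median became -0.02 with the probe set chosen on the wild-type arrays. The causes were not tested. No paired analysis was possible because each group has 1 array. The number of arrays limits the precision, and no replicate could be left out.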

Other observations

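Further gene groups were counted between the wild-type arrays, some of them near the shares of all genes (21.7% higher and 12.8% lower). Of 24 measured antioxidant and metal-handling genes 11 passed 2-fold upward and 0 downward (45.8%, median 0.93), among them Gpx3, the plasma glutathione peroxidase, with 36.1, 3460.3, 1349.8 and 898.9 and at least 5.76, Gpx4, which reduces lipid peroxides, at 2.56 with at least 6.82 from its other probe set, and Txnip, the thioredoxin inhibitor, at 3.495 with at least 4.10 from its other probe set. For 8 of the 24 wild-type sham was at least 2-fold below the other 3 arrays. Heat shock and endoplasmic reticulum genes had 10 of 29 higher and 0 lower (34.5% higher, median 0.31). Wild-type sham was at least 2-fold below the other 3 arrays for 10 of the 29. Hspb7 was at 4.28 (629.7, 12217.6, 3683.5 and 2803.6), with other probe sets at 4.88 and at least 5.46. Hspb8 was at 5.05, with other probe sets at -0.15 and at least 3.30. Lipid synthesis and storage genes had 3 of 14 higher and 2 lower (21.4% and 14.3%), with Pnpla2, the triglyceride lipase, at 4.78 and Scd1 at -4.17. Of 17 cell-cycle genes 4 were higher and 5 lower (23.5% and 29.4%, median -0.23, and 0.555 with the mean of all probe sets): Ccng2 was at -2.14, and Ccnd3, a D-type cyclin, was high on wild-type banded alone (58.2, 498.7, 51.8 and 56.6). The PI3 kinase, Akt and mTOR list had 5 of 18 higher (27.8%) and 1 lower (median -0.049, and 0.14 after cyclic loess), with Akt1 at 3.05, Akt2 at least at 3.41 and Pik3ca, the catalytic subunit, at -1.60.

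Differences also varied by chromosome. Of 326 measured genes on chromosome 7, 32.5% passed 2-fold upward and 5.83% downward (median 0.36), while of 159 genes on chromosome X 9.43% did so upward and 22.0% downward (median -0.41). Chromosome 17 had 29.9% higher and chromosome 13 10.9%. Both wild-type arrays enter every one of these values, and genes on a chromosome are not independent replicates.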
